A study of Mus musculus with 6 samples.

Results

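Alpha-like globin RNA was measured in whole fetal livers of Klf1-/- and wildtype mouse embryos. The members were the 6 genes Hba-x, Hba-a1, Hba-a2, Hbq1a, Hbq1b and Ahsp, found by their symbols in the platform's annotation. Of the 21334 genes named there 5 were members, on 5 of 34760 probe sets. Hba-x, Hbq1b and Hbq1a each had a probe set of their own. Hba-a1 and Hba-a2, the adult alpha-globin genes, shared 2 joint probe sets, 10375051 and 10375058, each of which named both genes and carried the same transcript accessions, so the genes could not be separated. Ahsp, the chaperone of free alpha chains, is not analysed here.

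All embryos were FVB/NJ, came from timed matings of Klf1 +/- mice and were taken at embryonic day 13.5. The 3 Klf1-/- livers and the 3 wildtype livers were each dissociated to a cell suspension and hybridised to an array of their own, so n = 3 per group. The labels state neither which part of Klf1 was altered nor whether embryos shared a litter, and no cell type was sorted.

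Haemoglobin of the mouse is a tetramer of alpha-like and beta-like chains that each hold a heme. The alpha-like genes lie together on chromosome 11 in the order Hba-x, Hba-a1, Hbq1b, Hba-a2, Hbq1a. Hba-x encodes the embryonic zeta chain of primitive red cells, Hba-a1 and Hba-a2 encode the adult alpha chain, and Hbq1a and Hbq1b encode theta chains whose part in haemoglobin is uncertain. Klf1, an erythroid Krüppel-like factor, binds CACCC-type DNA and is best known for its role at the adult beta-globin gene. In the fetal liver definitive red cell precursors are formed, while primitive red cells from the yolk sac still circulate.

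The DNA upstream of the genes is given to show how alike the gene copies are and where CACCC-type letters lie. Each window is the 250 bases before the start of the RefSeq gene (build GRCm38.p6, plus strand, 5′ to 3′), and capitals mark every CCACCC or CCNCNCCC. The windows are chr11:32276350-32276599 for Hba-x, chr11:32283422-32283671 for Hba-a1, chr11:32286714-32286963 for Hbq1b and chr11:32299819-32300068 for Hbq1a.
Hba-x: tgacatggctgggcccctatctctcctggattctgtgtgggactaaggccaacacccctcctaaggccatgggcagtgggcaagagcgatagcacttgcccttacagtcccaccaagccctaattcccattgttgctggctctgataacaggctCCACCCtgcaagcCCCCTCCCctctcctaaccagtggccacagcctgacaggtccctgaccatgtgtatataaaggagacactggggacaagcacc
Hba-a1: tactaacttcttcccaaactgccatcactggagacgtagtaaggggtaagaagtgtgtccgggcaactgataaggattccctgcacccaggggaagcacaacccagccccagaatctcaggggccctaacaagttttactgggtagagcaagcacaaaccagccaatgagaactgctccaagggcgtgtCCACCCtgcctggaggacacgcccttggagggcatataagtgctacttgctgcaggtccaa
Hbq1b: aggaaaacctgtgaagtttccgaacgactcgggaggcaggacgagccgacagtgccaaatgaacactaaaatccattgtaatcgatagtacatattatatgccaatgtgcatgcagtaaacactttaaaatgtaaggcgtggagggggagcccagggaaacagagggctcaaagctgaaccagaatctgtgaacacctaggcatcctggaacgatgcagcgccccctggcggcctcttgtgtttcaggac
Hbq1a: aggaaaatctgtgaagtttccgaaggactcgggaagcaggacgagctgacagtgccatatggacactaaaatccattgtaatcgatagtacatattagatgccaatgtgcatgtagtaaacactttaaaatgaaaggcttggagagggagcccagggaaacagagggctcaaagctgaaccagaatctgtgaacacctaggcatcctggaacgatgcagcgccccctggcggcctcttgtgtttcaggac
The Hba-a2 window (chr11:32296242-32296491) is the Hba-a1 window moved by 3 bases: all 247 bases that could be lined up were identical. The Hbq1a and Hbq1b windows differed at 11 of 250 bases. Against these near copies, the Hba-x window matched that of Hba-a1 at 74 of 248 bases. This was with the windows moved by 2 bases, the best of the small ungapped shifts tried.

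A motif search on both strands of these windows covered CCACCC for the CACCC box, CCNCNCCC for the wider family of sites that Klf1 binds, GATAA for GATA factors, CCAAT for the box of that name, TATAA for the TATA box and CCAGGGGGC for the core of the CTCF motif. CCACCC began 96 bases before the start of Hba-x, 61 before that of Hba-a1 and 64 before that of Hba-a2, and neither CACCC-type motif was found in the Hbq1 windows. CCNCNCCC began 83 bases before the start of Hba-x alone. Across 32851 promoter windows of the same length, 28.1% held CCACCC and 45.9% held CCNCNCCC, so these letters are common. GATAA, the core of GATA sites, began 107, 182 and 185 bases before Hba-x, Hba-a1 and Hba-a2 (22.6% of windows). TATAA began 28, 27 and 30 bases before the same genes, and on the other strand 156 bases before Hbq1b (22.8% of windows). CCAAT began 88 bases before Hba-a1, 91 before Hba-a2 and 149 before each Hbq1 gene (33.8% of windows). CCAGGGGGC began 30 bases before the start of both Hbq1 genes, on the other strand, a match that 0.922% of windows held. No matches in a window overlapped each other.

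The arrays were alike in scale, with median intensities from 104.9 to 108.6 on the Klf1-/- arrays and from 104.5 to 109.8 on the wildtype arrays. Klf1 had log2 intensities of 9.05, 9.38 and 9.12 in Klf1-/- livers, against 10.59, 10.58 and 10.76 in wildtype livers. Klf1 was thus lower on every Klf1-/- array than on every wildtype array; whether its probe set lies in the altered part of the gene is not given in the sources used here, so its level is only a partial check of the labels. Alb and Afp, which define hepatoblasts, averaged 13.87 and 13.35 (log2 intensity) in Klf1-/- livers, against 13.93 and 13.31 in wildtype livers, so the tissue carried its defining markers. Differences are given in log2 units as Klf1-/- minus wildtype ± SE from limma. A probe set was called when its p, adjusted over all 34760 by the Benjamini-Hochberg method, was under 0.05. By that rule 3550 probe sets were called, 10.2% of all, with 4.52% lower and 5.7% higher in Klf1-/- livers. Of the calls 44.2% were lower, or 55.1% when each array was centred on its 75th percentile. The groups did not overlap in 32.8% of probe sets, with Klf1-/- lower in 15.9% and higher in 16.9%. In a whole liver, fewer red cells and less RNA per red cell cannot be told apart, and the number of arrays limits the precision.

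Of the 5 alpha-like probe sets 2 fell, those of Hbq1a and Hbq1b, and 0 rose. All 5 differences were negative, with that of 10375051 turning positive under quantile normalization, and they had a median of -0.40, against -0.01 over all probe sets. The joint adult alpha probe sets differed least and Hba-x varied most from embryo to embryo.

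**Figure D1:**
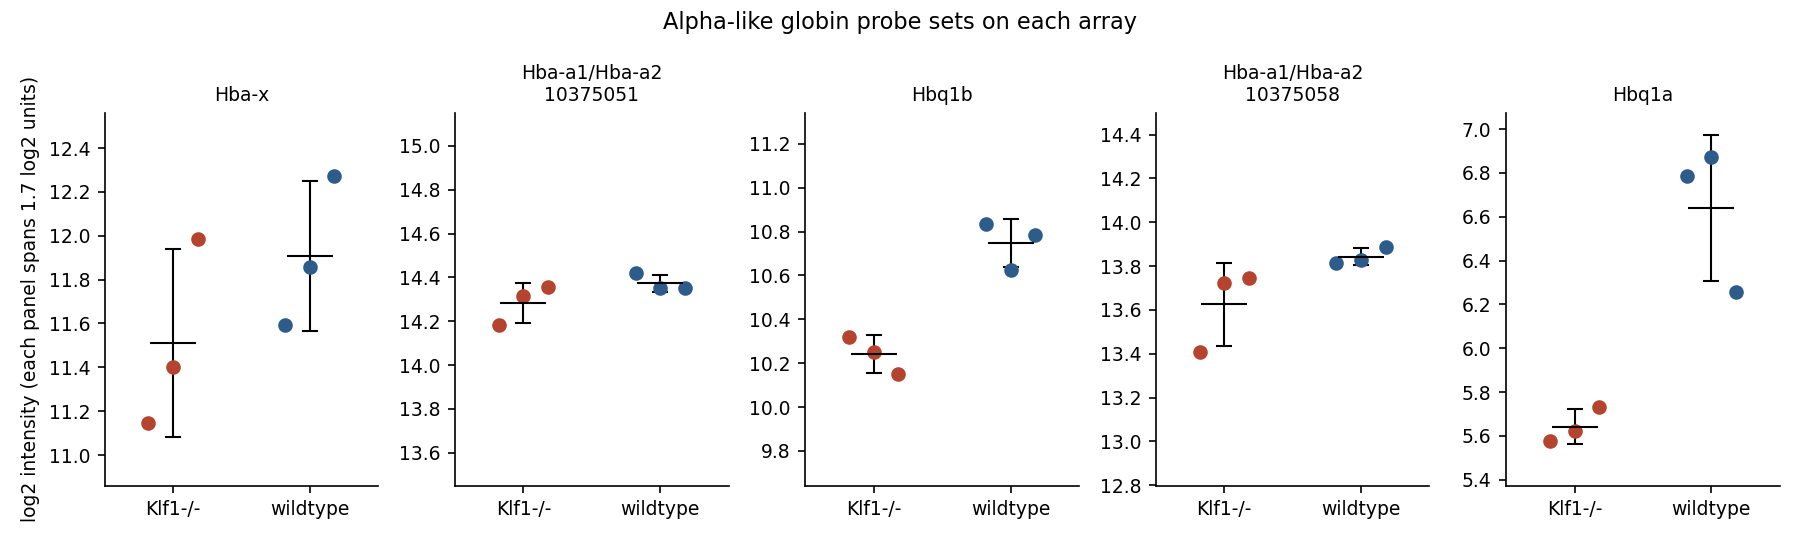
Log2 intensity of the 5 alpha-like globin probe sets on each array, Klf1-/- on the left and wildtype on the right of each panel, with mean and SD as bars (n = 3 per group). The groups do not overlap for Hbq1b, Hbq1a and the joint probe set 10375058, and they overlap for Hba-x and the joint probe set 10375051.

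The adult alpha genes, which supply the alpha chain of fetal and adult mouse haemoglobin, were not called on either joint probe set. Probe set 10375051 had intensities of 18586, 20382 and 20958 in Klf1-/- livers, against 21885, 20901 and 20873 in wildtype livers. The groups overlapped, since the highest Klf1-/- liver exceeded both lower wildtype livers. The difference was -0.09 ± 0.08 (limma adjusted p = 0.511), with a level in Klf1-/- livers of 94.0% of wildtype and a 95% interval of the ratio from 82.7 to 106.9%. Under quantile normalization the sign turned, to 0.02.

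Probe set 10375058 had intensities of 10868, 13528 and 13746 in Klf1-/- livers, against 14386, 14555 and 15167 in wildtype livers. Every Klf1-/- liver lay below every wildtype liver, and Klf1-/- replicate 1 was the lowest by a wide margin. The difference of -0.22 ± 0.11 was not called (limma adjusted p = 0.246), and the Klf1-/- level was 86.0% of wildtype (95% interval 72.3 to 102.4%). Without Klf1-/- replicate 1 the difference was -0.11, and with arrays centred on housekeeping genes it was -0.20. The intervals of the joint probe sets thus reach down to 82.7 and 72.3% of wildtype and include equal levels.

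These signals lay at the top of the measured range. On the Klf1-/- arrays probe set 10375051 ranked 3, 5 and 5 among all 34760, against 4, 5 and 6 on the wildtype arrays. Probe set 10375058 ranked 81, 53 and 53 on the Klf1-/- arrays, against 41, 35 and 36 on the wildtype arrays. Differences between bright probe sets can be compressed on an array, and how far that applies here was not tested.

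The adult beta genes, whose chains pair with adult alpha, gave values on the same arrays and likewise had 2 joint probe sets, each naming Hbb-b1, Hbb-b2, Hbb-bs and Hbb-bt. The brighter, 10566258, had intensities of 9260, 11474 and 10265 in Klf1-/- livers, against 22839, 21805 and 21955 in wildtype livers, where it ranked 1, 3 and 1. The dimmer, 10566254, had 943.3, 1489 and 1103 in Klf1-/- livers, against 8307, 7795 and 9012 in wildtype livers. Both fell, with differences of -1.11 ± 0.10 and -2.85 ± 0.17 (limma adjusted p = 0.00064 and 0.000128). A brighter and a dimmer probe set that name the same 4 genes thus gave differences of unlike size. Whether both probe sets measure these genes alike was not tested.

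**Figure D2:**
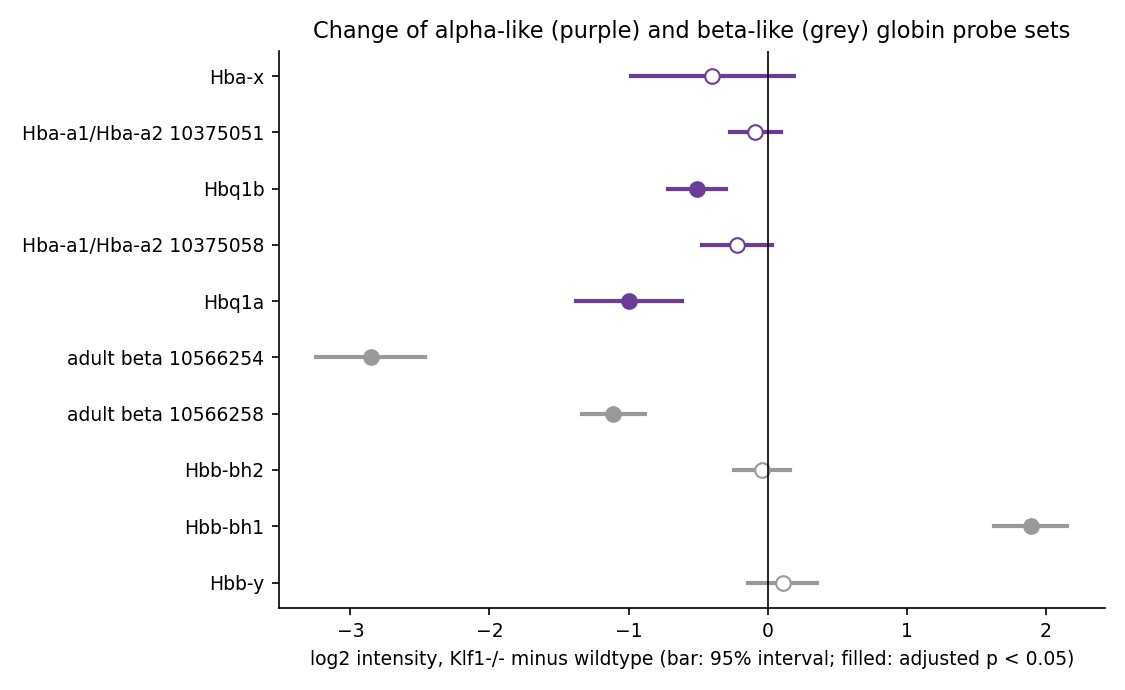
Difference in log2 intensity, Klf1-/- minus wildtype, for the alpha-like and beta-like globin probe sets, with 95% intervals from the limma fit and filled points where the adjusted p was under 0.05. The adult alpha probe sets lie at -0.09 and -0.22, the adult beta probe sets at -1.11 and -2.85 and Hbb-bh1 at 1.89.

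The balance of alpha-like to beta-like signal was compared as a log2 ratio within each array. A ratio of different probe sets has no absolute meaning, but its difference between genotypes shows unequal change of signal. Unequal compression of bright probe sets can also alter it, which was not tested. For 10375051 over 10566258 the log2 ratio was 1.01, 0.83 and 1.03 in Klf1-/- livers, against -0.06, -0.06 and -0.07 in wildtype livers. The adult alpha to beta signal was thereby 2.03-fold higher in Klf1-/- livers, and every Klf1-/- liver lay above every wildtype liver. For 10375058 over 10566258 it was 0.23, 0.24 and 0.42 in Klf1-/- livers, against -0.67, -0.58 and -0.53 in wildtype livers, or 1.85-fold higher.

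In exact 2-sided permutation tests each of these comparisons gave p = 0.10, the smallest that 3 against 3 livers allow, and an adjusted p of 0.167 over the 10 planned ratios. Over the dimmer beta probe set, a pairing chosen after its values were seen, the alpha to beta ratio was 6.79-fold and 6.21-fold higher in Klf1-/- livers, again without overlap. The size of the difference in ratio therefore depended on which beta probe set was used, while its direction did not.

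**Figure D3:**
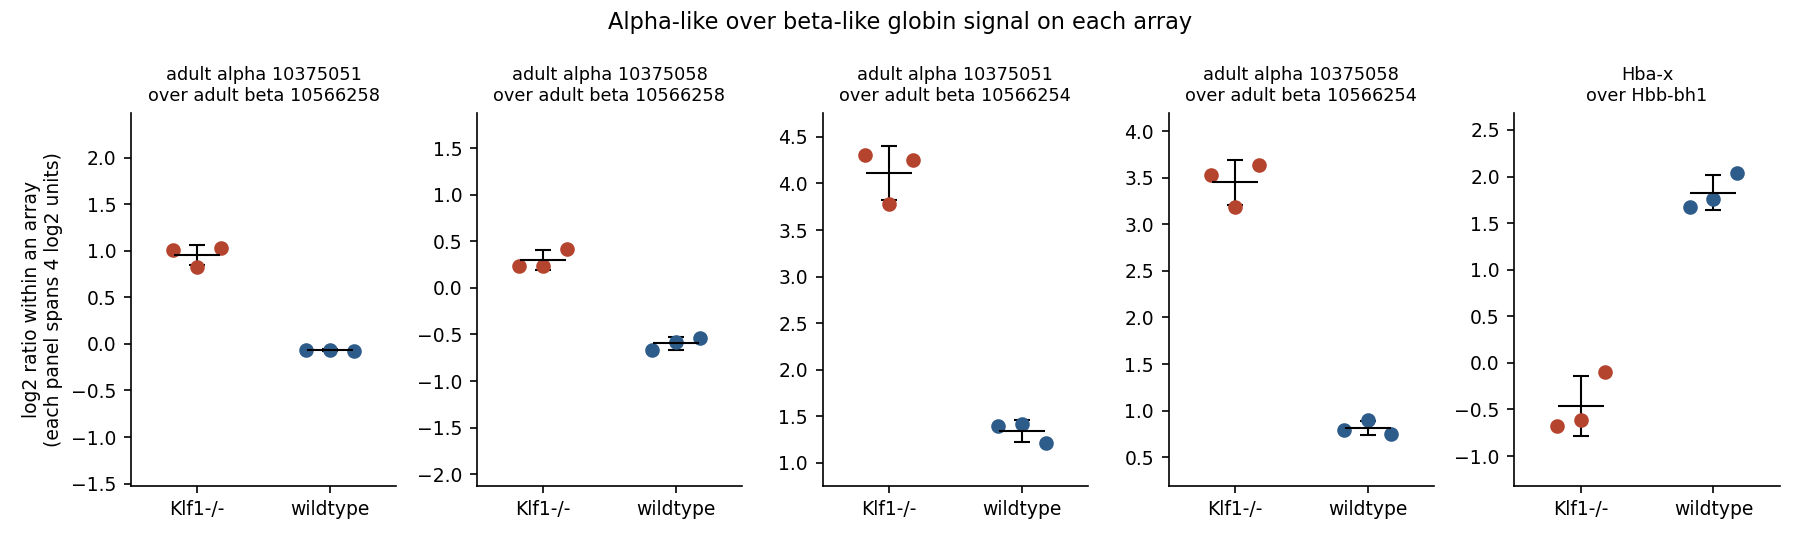
Log2 ratio of alpha-like over beta-like globin signal on each array, Klf1-/- left and wildtype right, with mean and SD as bars (n = 3 per group). The ratio of adult alpha to adult beta is higher in every Klf1-/- liver for all 4 pairs of probe sets, and the ratio of Hba-x to Hbb-bh1 is lower in every Klf1-/- liver.

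Hba-x, the embryonic zeta-globin gene, had intensities of 2268, 2706 and 4050 in Klf1-/- livers, against 3094, 3709 and 4951 in wildtype livers. The groups overlapped widely, with Klf1-/- replicate 3 above 2 of the wildtype livers. The difference was -0.40 ± 0.25 (limma adjusted p = 0.35), and the Klf1-/- level was 75.9% of wildtype, with a 95% interval from 50.7 to 113.7%. With Klf1-/- replicate 3 left out the difference was -0.63, and with Klf1-/- replicate 1 or wildtype replicate 3 left out it was -0.22, still not called in any case.

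The spread of Hba-x among livers of a genotype was large. Its within-group SD of 0.39 was above that of 97.8% of the 17380 probe sets at or above the median level, whose median SD was 0.11. In both genotypes the order of the livers was that of Hbb-bh1, the embryonic beta-like partner of primitive cells, which had 3621, 4149 and 4323 in Klf1-/- livers, against 967.8, 1093 and 1204 in wildtype livers. With 3 livers in each genotype the relation cannot be tested.

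Of the embryonic beta-like genes, Hbb-bh1 did not follow Hba-x between genotypes. Hbb-bh1 rose by 1.89 ± 0.11 (limma adjusted p = 0.000136). The log2 ratio of Hba-x over Hbb-bh1 was -0.68, -0.62 and -0.09 in Klf1-/- livers, against 1.68, 1.76 and 2.04 in wildtype livers, a difference of -2.29 without overlap (exact permutation p = 0.10, adjusted 0.167). Hbb-y, the embryonic epsilon-like gene, had 12050, 13551 and 14611 in Klf1-/- livers, against 11869, 11702 and 13764 in wildtype livers. It was not called (0.11 ± 0.11, limma adjusted p = 0.562). Its difference was 0.04 without Klf1-/- replicate 3 and 0.18 without Klf1-/- replicate 1 or wildtype replicate 3. The log2 ratio of Hba-x to Hbb-y differed by -0.50 with overlap (exact permutation p = 0.20, adjusted 0.286). Whether Hbb-y and Hba-x changed unequally is thus not settled. Hbb-bh2 was not called either, at -0.04 ± 0.09 (limma adjusted p = 0.797).

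Hbq1b, one of the theta-globin copies, had intensities of 1280, 1218 and 1135 in Klf1-/- livers, against 1825, 1581 and 1765 in wildtype livers. Every Klf1-/- liver lay below every wildtype liver. It fell by 0.51 ± 0.09 (limma adjusted p = 0.0141), to 70.3% of wildtype with a 95% interval from 60.8 to 81.3%. The call was lost without Klf1-/- replicate 2 (adjusted p = 0.0558) or Klf1-/- replicate 3 (adjusted p = 0.0626), at differences of -0.51 and -0.46.

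Hbq1a, the other theta-globin copy, had intensities of 47.7, 49.2 and 53.2 in Klf1-/- livers, against 110.4, 117.1 and 76.5 in wildtype livers. The groups did not overlap, and wildtype replicate 3 was the wildtype liver nearest to the Klf1-/- livers. It fell by 0.996 ± 0.16 (limma adjusted p = 0.0106), to 50.1% of wildtype with a 95% interval from 38.5 to 65.4%. The probe set was dim, at the 30.8 to 33.8 percentile of the Klf1-/- arrays, against the 41.5 to 52.1 percentile of the wildtype arrays. The call was lost when the variances were not moderated (adjusted p = 0.0768).

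The theta copies have near identical upstream windows, and their transcripts may be as alike, so each probe set may hold signal of the other gene. The log2 ratio of Hbq1a over Hbq1b, a pair chosen after its values were seen, was -4.75, -4.63 and -4.42 in Klf1-/- livers, against -4.05, -3.76 and -4.53 in wildtype livers. The groups overlapped, with wildtype replicate 3 among the Klf1-/- livers. The difference was -0.49 (exact permutation p = 0.20, where 0.10 is the smallest possible). So few livers cannot show whether the copies changed alike.

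Set against adult alpha on the same arrays, Hbq1a was lower in Klf1-/- livers by both joint probe sets. Its log2 ratio differed by -0.91 over 10375051 and by -0.78 over 10375058, in each case without overlap (exact permutation p = 0.10, adjusted 0.167). Hbq1b over 10375051 differed by -0.42 without overlap (exact permutation p = 0.10, adjusted 0.167), while over 10375058 it differed by -0.29 with overlap (exact permutation p = 0.30, adjusted 0.375), or by -0.44 without Klf1-/- replicate 1 and -0.19 without Klf1-/- replicate 3. Hba-x over adult alpha differed by -0.31 and -0.18 with overlap (exact permutation p = 0.40 and 0.50, adjusted 0.444 and 0.50). With 1 array left out these Hba-x ratios ran from -0.51 to -0.11 and from -0.36 to -0.02, each largest in size without Klf1-/- replicate 3 and smallest without wildtype replicate 3. The theta and adult alpha genes alternate along the chromosome, and Hbq1a was the theta copy whose ratio did not overlap between genotypes by either joint probe set.

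Most genes around the cluster were not called. Of the 8 protein-coding genes on either side, 16 in all, 1 fell, 1 rose and 14 were not called. Differences of the uncalled lay between -0.28 and 0.30, with a median of -0.11 over the 16. Across all genes 11.8% of 19937 were called by their brightest single-gene probe set, so these counts do not set the neighbours apart. Nprl3, whose introns hold the distal enhancers of the alpha-like genes and which lies next to Hba-x, was 8.74, 8.87 and 8.83 (log2 intensity) in Klf1-/- livers, against 8.76, 8.78 and 8.83 in wildtype livers. Its difference was 0.02 ± 0.07 (limma adjusted p = 0.886), a sign that turned to -0.02 under quantile normalization and to -0.03 with 75th percentile centring. Stk10, a lymphocyte-oriented kinase and the fourth gene beyond Hbq1a, fell by 1.09 ± 0.09 (limma adjusted p = 0.000534). Fbxw11, an F-box protein of a ubiquitin ligase and the next gene, rose by 0.38 ± 0.08 (limma adjusted p = 0.0239), a call that 5 of the 6 fits with 1 array left out did not make.

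**Figure D4:**
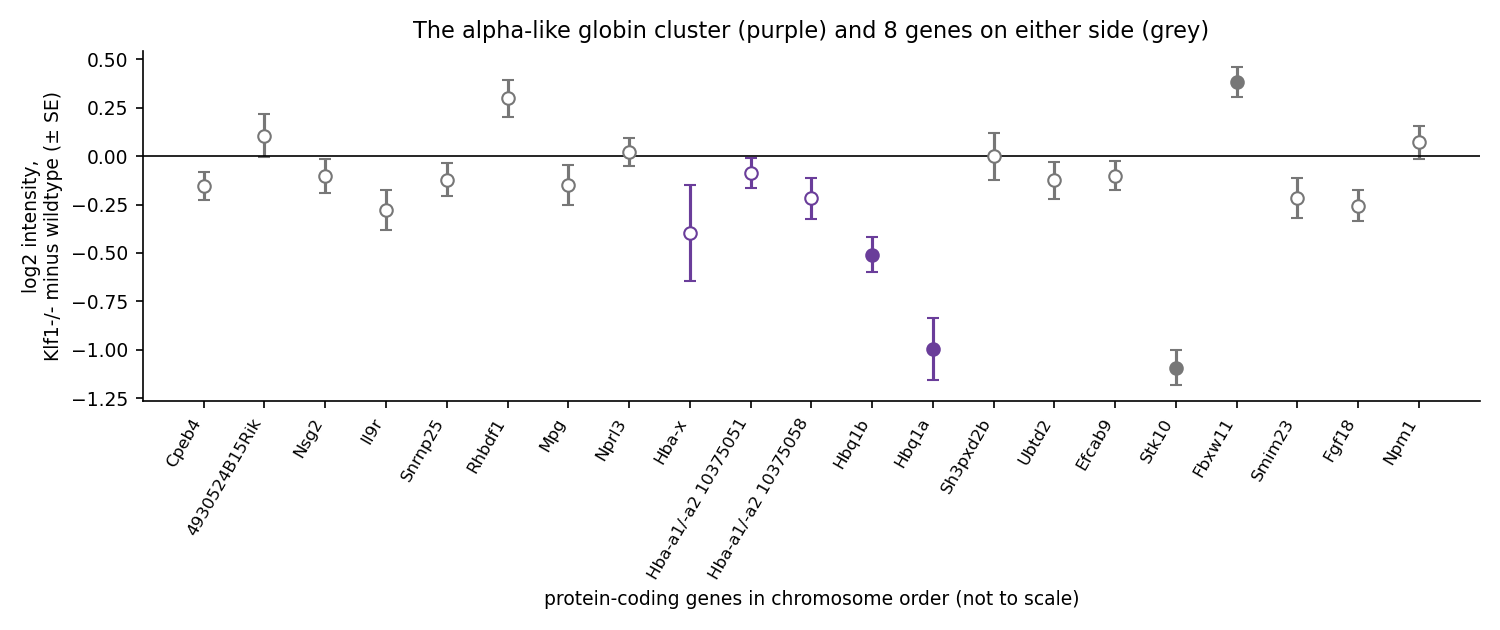
Difference in log2 intensity (± SE of the limma fit), Klf1-/- minus wildtype, for the alpha-like globin probe sets and the 8 protein-coding genes on either side in chromosome order, filled where called; the joint adult alpha probe sets stand side by side. Hbq1b at -0.51, Hbq1a at -0.996, Stk10 at -1.09 and Fbxw11 at 0.38 were called.

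Genes listed around alpha-like globin synthesis, not all of them known to act on it, were described by their brightest single-gene probe set. Among all genes so represented 11.8% of 19937 were called, 4.94% lower and 6.91% higher. Of 31 regulators of alpha-like globin transcription 11 fell, 2 rose and 18 were not called, with a median of -0.17. Klf1 itself was among them, at -1.46 ± 0.11, beside Sox6, a repressor of embryonic globin genes, at -2.75 and Klf3, a repressor that binds CACCC sites, at -2.59 (limma adjusted p of 0.000381 or less). Gata1, which binds GATA sites, was at -0.02 and Tfcp2, a factor that binds the alpha-globin promoter, at 0.07, neither called; these 2 were picked after their values were seen. The rises numbered 1 without Klf1-/- replicate 2 or 3 or wildtype replicate 1 or 3.

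Of 11 measured genes listed under alpha-globin mRNA stability and heme-controlled translation 4 fell and 0 rose. Ppp1r15a, the phosphatase subunit that reverses eIF2 phosphorylation, fell by 1.34, Eif2ak1, the heme-regulated eIF2 kinase, by 0.45 and the nucleotidase gene Nt5c3 by 0.44 (limma adjusted p = 0.000201, 0.0101 and 0.0244). Without Klf1-/- replicate 1 or 3, or without wildtype replicate 1 or 3, 2 genes fell. Pcbp1 and Pcbp2, the poly(C)-binding proteins that stabilise alpha-globin mRNA, were at 0.16 and 0.01 and not called; they were picked after their values were seen.

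Of 18 measured genes listed under free alpha chain and globin quality control 4 fell and 1 rose. Trim58, a red cell ubiquitin ligase, fell by 1.18 and Ulk1, the kinase that starts the autophagy of free alpha chains, by 0.77, while the heat shock protein gene Hspa1a rose by 1.10 (limma adjusted p = 0.000467, 0.00262 and 0.00453). Ube2o, the ubiquitin enzyme that marks unpaired alpha chains, was picked after its values were seen and fell by 0.71 (limma adjusted p = 0.00447). Heme synthesis genes, which make the group each alpha chain binds, fell in 7 of 12 cases and rose in 0, led by Slc25a37 at -1.97, Slc25a38 at -1.06 and Abcb10 at -1.001; without wildtype replicate 1, 1 rose. Of the 4 other globins, Mb, Ngb, Cygb and Adgb, 0 were called, and Cygb had the smallest p at -0.40 (limma adjusted p = 0.128); 1 of the 4 had an unadjusted limma p under 0.05, and 1 was called lower when a single probe set per gene was tested.

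RNA of cell type markers was compared in the same livers. Of 13 measured definitive red cell markers 9 fell and 1 rose, with a median of -0.78. The rise was that of Car1, at 2.95 the largest change of the list. Ermap and Rhd were at -1.59 and -1.53 (limma adjusted p = 2.65e-05, 4.1e-05 and 0.000146 for the named genes in turn). With Car1 included, the summed intensity ran from 51672 to 54686 in Klf1-/- livers, against 74886 to 81612 in wildtype livers. The adult alpha differences of -0.09 and -0.22 were smaller in size than the median of these markers. The adult alpha probe sets lay at the top of the measured range, where differences can be compressed, and its part in this comparison was not tested. Of 11 hepatoblast markers 0 were called, with sums from 48462 to 52086 in Klf1-/- livers, against 50446 to 60322 in wildtype livers; 3 had an unadjusted limma p under 0.05, and 2 were called lower when a single probe set per gene was tested.

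Of 12 macrophage markers 5 fell, with sums from 3865 to 4360 in Klf1-/- livers, against 5197 to 6355 in wildtype livers. An unadjusted limma p under 0.05 was found for 10. Under other processing or with 1 array left out, 2 to 8 fell. The count was 3 without Klf1-/- replicate 1 or 3 or wildtype replicate 2 or 3. Of 8 megakaryocyte markers 7 rose, with sums from 20347 to 26587 in Klf1-/- livers, against 15663 to 16525 in wildtype livers. Over the same alternatives 1 to 8 rose, with 2 without Klf1-/- replicate 2 and 4 without wildtype replicate 2. Of 10 granulocyte markers 3 rose, with sums from 7315 to 9219 in Klf1-/- livers, against 5713 to 6397 in wildtype livers. Over these alternatives 0 to 5 rose, with 0 without Klf1-/- replicate 2 or 3. Of 8 endothelial markers 0 were called, with sums from 4440 to 5291 in Klf1-/- livers, against 4004 to 5526 in wildtype livers; 5 had an unadjusted limma p under 0.05, and 3 rose without wildtype replicate 3. No probe set was listed at 0 on these arrays, and the part of cell makeup in the globin values was not tested.

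The genes most like each member across the 6 arrays were picked by Pearson correlation among 11822 single-gene probe sets at or above the median level, as a description. With so few arrays, genes of unlike size of change can correlate closely. Nearest to Hba-x were B3galnt2 (r = 0.991), Atxn2l (r = 0.979) and Kcnq5 (r = 0.979), whose differences between genotypes were each -0.07 or -0.06 and thus far smaller than that of Hba-x. Nearest to 10375051 were Asb3 (r = 0.993), Yrdc (r = 0.990) and Atpif1 (r = 0.983), the last a mitochondrial ATPase inhibitor. Their differences were -0.04, -0.12 and -0.08, against -0.09 for 10375051. Nearest to 10375058 were Tuba4a (r = 0.987), Map3k11 (r = 0.983) and Rgs14 (r = 0.980). They were at -0.25, -0.10 and -0.14, against -0.22 for 10375058.

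Among the theta genes, the matches were close in size of change for Hbq1b and not for Hbq1a. Nearest to Hbq1b were Scarna13 (r = 0.998), Yipf4 (r = 0.997) and Cd99l2 (r = 0.997), with differences of -0.51, -0.48 and -0.50 that were close to its own -0.51. Nearest to Hbq1a were Map3k7 (r = 0.997), Klhdc8b (r = 0.991) and Lmnb1 (r = 0.990), with differences of -0.20, -0.16 and -0.53, all smaller than its own -0.996. No gene was nearest to more than 1 member.

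The members' differences were recomputed under other processing and with each array left out. Hbq1a and Hbq1b were lower in Klf1-/- livers in every one of these fits in which they were tested, with ranges from -1.19 to -0.81 and from -0.57 to -0.46. Hba-x ran from -0.63 to -0.22 and probe set 10375058 from -0.28 to -0.11, and neither was called in any of them. Probe set 10375051 ran from -0.14 to 0.02 and was not called in any of them either.

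**Figure D5:**
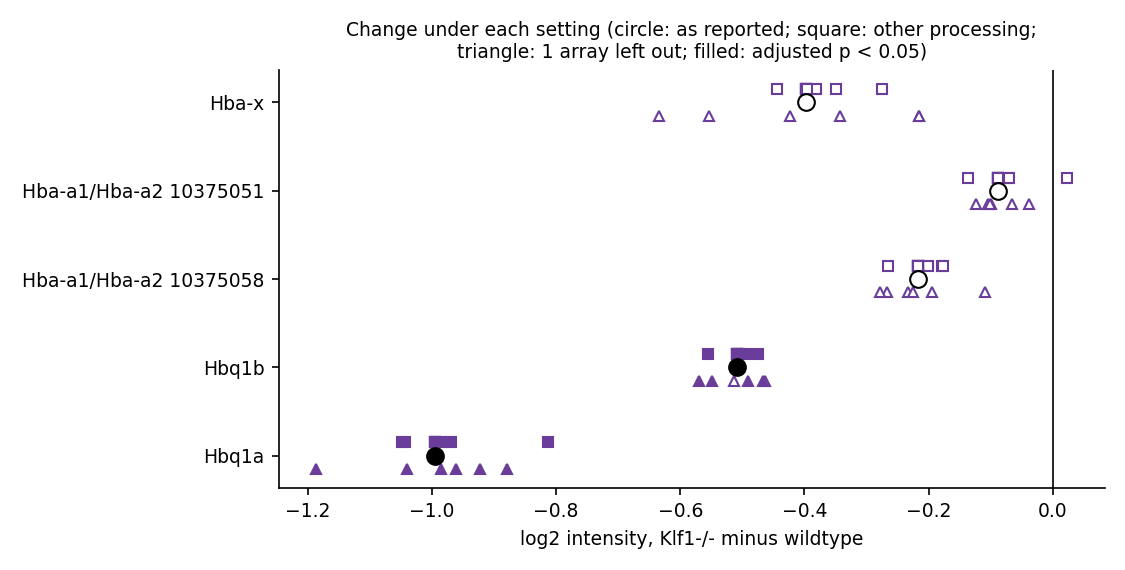
Difference in log2 intensity, Klf1-/- minus wildtype, of the 5 alpha-like probe sets as reported (circles), under other processing (squares) and with 1 array left out (triangles), filled where the adjusted p was under 0.05. Hbq1a and Hbq1b stay below 0 throughout, while 10375051 crosses 0 under quantile normalization.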

How the data were processed

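Livers of 6 embryos were each hybridised to a 1-colour Affymetrix mouse gene array and grouped by title. The deposited values are probe set intensities on a linear scale, which the authors computed by RMA (Affymetrix Power Tools, version 1.8.6), as the submitters' processing notes state. No genome build is given in the sources used here. The method equalises the arrays, so a change in total RNA cannot be seen. From these values log2 was taken, and Klf1-/- was compared with wildtype over all 34760 probe sets, with no filter, with limma (version 3.58.1, lmFit then eBayes, R version 4.3.3), with no term but group and 2-sided p-values. Of the probe sets, 21640 named 1 gene, 1321 several and 11799 none. Lists used the brightest single-gene probe set of each gene. Ratios were tested by exact permutation; those with Ahsp, and its neighbours, were not formed.

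Promoter sequences are from RefSeq tables of GRCm38.p6, which matched 5 of the 6 members.

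The members and lists were chosen with earlier results of these data known. Named genes were the members, Klf1, the beta-like globins, called neighbours, per list the 3 called genes that changed most (or, with none called, the gene of smallest p), and the 3 nearest genes per member; Nprl3 and those so marked were added after their values were seen. Alb and Afp, which this rule did not select, were printed as a check of the tissue. Other hepatoblast genes, and macrophage, megakaryocyte, granulocyte and endothelial genes, were kept to counts and sums. Nothing in the labels says that embryos came from separate litters, and p-values reflect only how these livers varied. Alternatives covered scaling, filters on dim probe sets, the features tested, array weights, variance models, the replicate number as a block, a pseudocount of 16, a threshold of 0.01 and leaving out each array.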

Additional observations from a re-analysis of the deposited data

How the results depend on the processing

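Over 18 alternatives, the number of probe sets called was within 1.5 times of 3550 except 2268 (1103 higher) with unmoderated variances, 1764 without Klf1-/- replicate 2, 1811 without Klf1-/- replicate 3 and 2147 without wildtype replicate 2; with 1 array left out it ran from 1764 to 2853. With 1 array left out 936 to 1257 were lower and 828 to 1607 higher. Both Hbq1 calls were lost at an adjusted p threshold of 0.01 (Hbq1a at -0.996, Hbq1b at -0.51). Hbq1a, at -0.996, was not called with unmoderated variances, and could not be tested with the filter at the median level, which removed it; with 1 array left out Hbq1b ran from -0.57 to -0.46. Quantile normalization turned 10375051 to 0.023, Hbb-bh2 to 0.013 and Nprl3 to -0.020, and moved the log2 ratio of 10375051 over 10566258 to 1.15; 75th percentile centring turned Nprl3 to -0.027. With 1 array left out Hbb-bh2 ran from -0.0995 to 0.025 and Nprl3 from -0.0074 to 0.057, and both turned without Klf1-/- replicate 2. The dimmer beta probe set, added after the data were seen, gave log2 ratios of 2.76 and 2.63 in place of 1.02 and 0.89. Causes were not tested. With the replicate number as a block 2596 probe sets were called and Hba-x had a limma adjusted p of 0.0578 (0.0578 to 0.634 over its alternatives). Same-numbered arrays correlated at -0.16, -0.22 and 0.18 in their deviations. With 3 livers per group these values cannot show whether the numbers pair the livers. Whether the brightness of the adult globin probe sets limits what can be seen in them was not tested.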
